A study of Arabidopsis thaliana with 10 samples.

Results

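The 44 genes described here are 29 Aux/IAA genes and 15 auxin response factor (ARF) genes of Arabidopsis thaliana. The 7 ARF genes of the ARF12-like cluster are not among them and were counted apart. The 44 genes were chosen by gene family from the 27444 protein-coding nuclear genes of the TAIR10.1 annotation. Their sites were read from the peak lists of 9 libraries, in which proteins made in vitro pulled down fragments of naked, PCR-amplified genomic DNA of 2-weeks-old Col-0 seedlings. The proteins were SEP3∆tet-AG (2 libraries), SEP3-AG (3 libraries) and SEP3 (4 libraries). Both SEPALLATA3 (SEP3) and its partner AGAMOUS (AG) belong to the MADS-domain factors that specify floral organs, which bind CArG boxes as dimers and can join into tetramers, and SEP3∆tet is a splice variant of SEP3 that lacks a part of the tetramerisation region. SEP3∆tet-AG and SEP3-AG were purified through a FLAG tag and then a Myc tag (seq-DAP-seq), and SEP3 through FLAG alone, so any comparison with SEP3 also carries this step. No chromatin, cofactor or living cell was part of the assay. A summit says that the protein held this DNA in vitro, not that the gene responds in a plant.

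Aux/IAA and ARF proteins are the nuclear end of auxin signalling. ARFs bind DNA at auxin response elements such as TGTCTC, and Aux/IAA proteins bind ARFs and bring TOPLESS co-repressors to them. Auxin joins Aux/IAA proteins to the TIR1/AFB receptors and so leads to their breakdown, which frees the ARFs. Class A ARFs (ARF5, ARF6, ARF7, ARF8 and ARF19) activate transcription, class B ARFs mostly repress it, and class C ARFs (ARF10, ARF16 and ARF17) are targets of miR160. In the flower, ARF3 (ETTIN, ETT) patterns the gynoecium, ARF5 (MONOPTEROS) is needed for flower primordia, and ARF6 and ARF8 act in the maturation of stamens and gynoecium.

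A gene was called bound by a complex when at least 2 of its libraries had a summit in the window from 3000 bp upstream to 1000 bp downstream of the gene. Summits within 200 bp of a stronger summit were taken as 1 site, and a site was a consensus site of a complex when 2 or more libraries of that complex shared it. The lists held 3331 and 2329 summits for SEP3∆tet-AG, 8888, 6643 and 9588 for SEP3-AG, and 473, 1225, 1915 and 8916 for SEP3. Depth relative to the input DNA, recovered from the peak values, was 1.29 and 2.15 for SEP3∆tet-AG, 1.25 and 1.14 for SEP3-AG replicates 1 and 2 and not above the input for replicate 3. For SEP3 it was 2.30, 1.65, 1.57 and 1.77. The longest list (SEP3-AG replicate 3) came from a library not above the input, and the shortest (SEP3 replicate 1) from the deepest. SEP3 replicate 4, with 8916 summits, was deeper than SEP3 replicates 2 and 3. The relation of depth to list length was not tested. SEP3 replicate 4 stood apart from the other SEP3 libraries by its long list and by another prefix in its peak names, which marks a possible batch of 1 library. Counts of genes for SEP3 and differences from SEP3 are given with and without it.

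The sites that the results below turn on are shown first, on the forward strand of TAIR10.1, with the best match to a CArG box in capitals. A CArG box is CC, then 6 bases of A or T, then GG, and reads alike on both strands. The first set holds the 5 consensus sites of SEP3-AG at these genes that had a box without mismatch within 50 bp of the summit, where the summit is the best-ranked one of any library at the site. They lay upstream of ARF3 (chr2:14330155-14330255), IAA2 (chr3:8183061-8183161), IAA1 (chr4:8358648-8358748) and IAA14 (chr4:8353006-8353106) and in an intron of IAA14 (chr4:8349576-8349676).
ARF3, upstream: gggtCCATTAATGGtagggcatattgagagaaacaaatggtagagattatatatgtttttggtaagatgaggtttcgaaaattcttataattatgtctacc
IAA2, upstream: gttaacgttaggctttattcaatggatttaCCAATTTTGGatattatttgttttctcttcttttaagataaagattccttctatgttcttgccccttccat
IAA1, upstream: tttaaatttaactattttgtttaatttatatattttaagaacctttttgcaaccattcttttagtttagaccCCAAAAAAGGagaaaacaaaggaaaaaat
IAA14, upstream: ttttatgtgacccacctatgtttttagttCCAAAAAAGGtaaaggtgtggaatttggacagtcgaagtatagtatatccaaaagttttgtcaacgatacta
IAA14, intron: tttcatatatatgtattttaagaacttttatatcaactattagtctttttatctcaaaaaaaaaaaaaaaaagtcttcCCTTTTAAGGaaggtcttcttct

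The second set holds the 3 sites with the highest mean fold enrichment with SEP3-AG (IAA9, ARF7 and IAA20), a site called with all 3 complexes (IAA5) and a promoter site with a pair of boxes (IAA27). They are the intron site of IAA9 (chr5:26253873-26253902), the site downstream of IAA20 (chr2:19309912-19309941), the site in a UTR exon of ARF7 (chr5:7021907-7021936), the intron site of IAA5 (chr1:5366029-5366129) and the promoter site of IAA27 (chr4:14325421-14325521). Where an annotated UTR lay in the window, 30 bases around the best match are printed. The best match at IAA9 had 2 mismatches and those at the others 1 mismatch, and at IAA27 a pair of boxes began 69 bp apart.
IAA9, intron: tttgttttttCCGTTTGAGGtaattatgtc
IAA20, downstream: aaaaaattacCCAAAATAGAaattcacaac
ARF7, UTR exon: gttttgctttCCTTTCTTGGggggaatcaa
IAA5, intron: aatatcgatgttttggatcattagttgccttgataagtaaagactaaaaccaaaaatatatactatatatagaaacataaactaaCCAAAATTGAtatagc
IAA27, upstream: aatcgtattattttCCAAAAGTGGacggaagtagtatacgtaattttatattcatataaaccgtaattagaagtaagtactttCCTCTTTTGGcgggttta

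SEP3∆tet-AG bound 6 of the 44 genes (13.6%, 95% Wilson interval 6.40% to 26.7%), against 11.3% of all protein-coding genes. SEP3-AG bound 25 of 44 (56.8%, 42.2% to 70.3%), against 36% of all genes. SEP3 bound 6 of 44 (13.6%, 6.40% to 26.7%), against 11.3% of all genes. The intervals cover counting error only, and the genes of a library are not replicates. The SEP3-AG share thus lay above the share of all genes, and the shares of the other complexes lay near it. No gene was bound by SEP3∆tet-AG or SEP3 and not by SEP3-AG, so that 25 of 44 genes were bound by any complex, against 37.9% of all genes. Of the 44 genes, 16 were bound by SEP3-AG and by no other complex (36.4%, against 22% of all genes), and 19 were when SEP3 replicate 4 was left out (43.2%, against 24.7%). The 12 genes without a summit in any library (27.3%, against 47.4% of all genes) were IAA3, IAA4, IAA6, IAA7, IAA8, IAA10, IAA12, IAA30, IAA32, IAA33, ARF8 and ARF16. The remaining 7 genes, IAA16, IAA18, IAA28, ARF5, ARF6, ARF18 and ARF19, had summits but in fewer than 2 libraries of each complex. The windows were of like length, with a median of 6440 bp for these genes and 6078 bp for all genes, although ARF windows (8530 bp) were longer than Aux/IAA windows (5740 bp).

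All 6 genes counted for SEP3 (IAA5, IAA20, IAA29, ARF1, ARF2 and ARF9) were counted through replicate 4 and a single other library. Without SEP3 replicate 4, SEP3 bound 0 of 44 genes (0.0%), against 4.71% of all genes. IAA5, IAA20 and ARF9 were bound by all 3 complexes (6.82%, against 6.61% of all genes), and without that library no gene was (0.0%, against 3.83% of all genes).

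By family, SEP3-AG bound 16 of 29 Aux/IAA genes (55.2%) and 9 of 15 ARF genes (60%), against 36% of all genes. The Aux/IAA genes were IAA1, IAA2, IAA5, IAA9, IAA11, IAA13, IAA14, IAA15, IAA17, IAA19, IAA20, IAA26, IAA27, IAA29, IAA31 and IAA34. They comprised 13 of 23 genes that encode a canonical degron, the segment through which auxin and TIR1/AFB receptors reach the protein, and 3 of 6 genes without one (IAA20, IAA31 and IAA34). Among the 15 ARFs, 6 of 7 class B genes (ARF1, ARF2, ARF3, ARF4, ARF9 and ARF11), 1 of 5 class A genes (ARF7) and 2 of 3 class C genes (ARF10 and ARF17) were bound by SEP3-AG. These class counts leave out the ARF12-like cluster, of which SEP3-AG bound 4 of 7 genes (57.1%). The difference between the classes was not tested, since the classes hold few genes and the genes share their libraries. SEP3∆tet-AG bound IAA5, IAA9, IAA15, IAA20, ARF7 and ARF9. In SEP3 replicate 4, all 7 class B genes among the 15 ARFs, ARF18 included, had a summit. So did 2 of 5 class A and 1 of 3 class C genes, against 36% of all genes, whose windows were shorter than ARF windows. In SEP3 replicates 1 to 3, 0, 2 and 1 of 7 class B genes had a summit, against 2.47%, 6.61% and 9.19% of all genes.

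**Figure D1:**
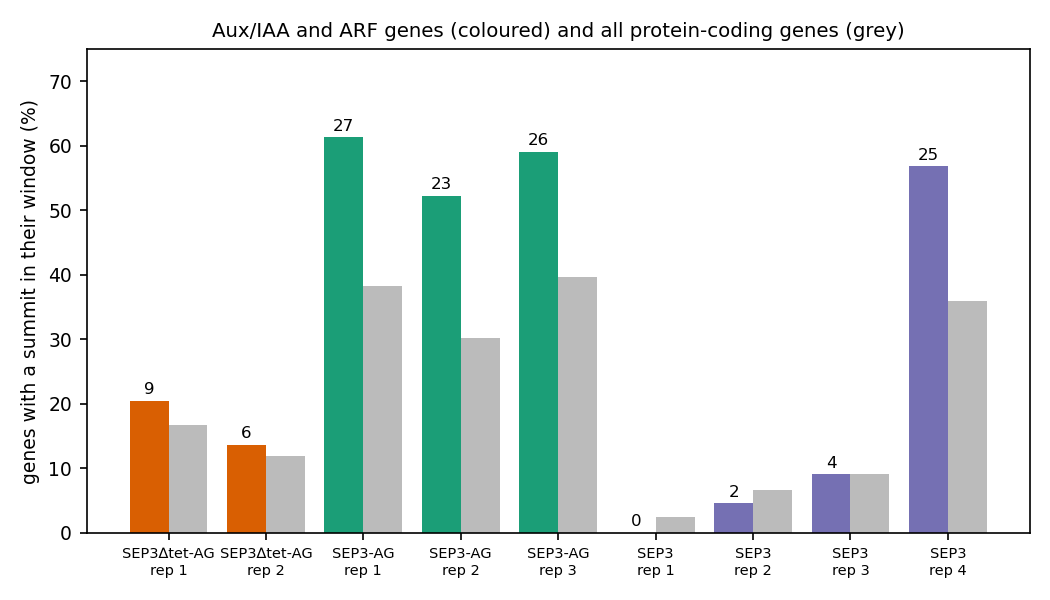
Share of genes with a summit in their window in each library, in percent, for the 44 Aux/IAA and ARF genes (coloured bars, with the number of genes above each bar) and for all 27444 protein-coding genes (grey bars). The 3 SEP3-AG libraries and SEP3 replicate 4 reached 23 to 27 of the 44 genes, above the grey bars, and the other 5 libraries reached 0 to 9.

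In single libraries, 9 and 6 of the 44 genes had a summit with SEP3∆tet-AG, against 16.7% and 11.9% of all genes. With SEP3-AG these were 27, 23 and 26 genes, against 38.3%, 30.3% and 39.6% of all genes. With SEP3 they were 0, 2, 4 and 25 genes in replicates 1 to 4, against 2.47%, 6.61%, 9.19% and 36% of all genes. The number averaged 7.5 ± 2.12 genes in SEP3∆tet-AG libraries (SD, n = 2) and 25.3 ± 2.08 genes in SEP3-AG libraries (SD, n = 3). The groups did not overlap and differed by -17.8 genes (exact permutation test, two-sided, p = 0.1, the smallest that 10 splits allow), so that this design cannot pass 0.05. SEP3 libraries averaged 7.75 ± 11.6 genes (SD, n = 4). SEP3-AG and SEP3 differed by 17.6 genes (exact permutation test, p = 0.0857, with 0.0286 the smallest possible) and overlapped through SEP3 replicate 4, without which the difference was 23.3 genes (exact permutation test, p = 0.1, the smallest possible). SEP3∆tet-AG and SEP3 differed by -0.25 genes (exact permutation test, p = 1), and by 5.5 genes without SEP3 replicate 4 (exact permutation test, p = 0.1, the smallest possible).

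Since the lists differed in length, the share of a list's summits that fell in windows of these genes was compared as well. It was 0.360% and 0.301% for SEP3∆tet-AG and 0.461%, 0.512% and 0.417% for SEP3-AG. For SEP3 it was 0%, 0.163%, 0.209% and 0.437% in replicates 1 to 4. The difference was -0.133 percentage points between SEP3∆tet-AG and SEP3-AG, whose values did not overlap (exact permutation test, p = 0.1, the lowest p that 10 splits give). Between SEP3-AG and SEP3 it was 0.261 points (exact permutation test, p = 0.0857), again with an overlap through replicate 4, without which it was 0.339 points (exact permutation test, p = 0.1). Between SEP3∆tet-AG and SEP3 it was 0.128 points (exact permutation test, p = 0.4). This value rested on single SEP3 libraries, as it was 0.0606 points without SEP3 replicate 1 and 0.206 points without SEP3 replicate 4 (exact permutation tests, p = 0.6 and p = 0.2). Per 100 kb, summits were 1.34 and 1.11 times as frequent in these windows as in the windows of all genes for SEP3∆tet-AG, and 1.73, 1.91 and 1.58 times as frequent for SEP3-AG. For SEP3 the ratios were 0, 0.593 and 0.784 in replicates 1 to 3 and 1.65 in replicate 4.

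Summits at these genes were of middling strength. Ranked within each list, with 0 for the strongest and 100 for the weakest summit, their median lay at 58.9 and 36.9 for SEP3∆tet-AG, at 44.7, 44.4 and 39.8 for SEP3-AG and at 77.4, 58.8 and 56.8 for SEP3 replicates 2 to 4. SEP3 replicate 1 had no summit there and gave no value, and the medians of SEP3 replicates 2 to 4 rested on 2, 4 and 39 summits. The lists also differed in length, so that a rank does not mark the same strength in each. With these limits, SEP3-AG and SEP3 differed by -21.4 (exact permutation test, p = 0.1, the lowest that 3 against 3 libraries can give), and by -25.1 without SEP3 replicate 4 (exact permutation test, p = 0.1). SEP3∆tet-AG overlapped with SEP3-AG (difference 4.93, exact permutation test, p = 0.7), and the difference was -6.12 without SEP3∆tet-AG replicate 1 and 16 without replicate 2. SEP3∆tet-AG overlapped with SEP3 as well (difference -16.4, exact permutation test, p = 0.5). That difference was -27.5 without SEP3∆tet-AG replicate 1, -5.40 without SEP3∆tet-AG replicate 2, -9.90 without SEP3 replicate 2 and -20.2 without SEP3 replicate 4. With only the best summit of each library kept at each site, 178 summits remained. They had between 51 and 479 fragments under them (median 123), as recovered from fold enrichment and p-value, and 1 of them gave no number.

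**Figure D2:**
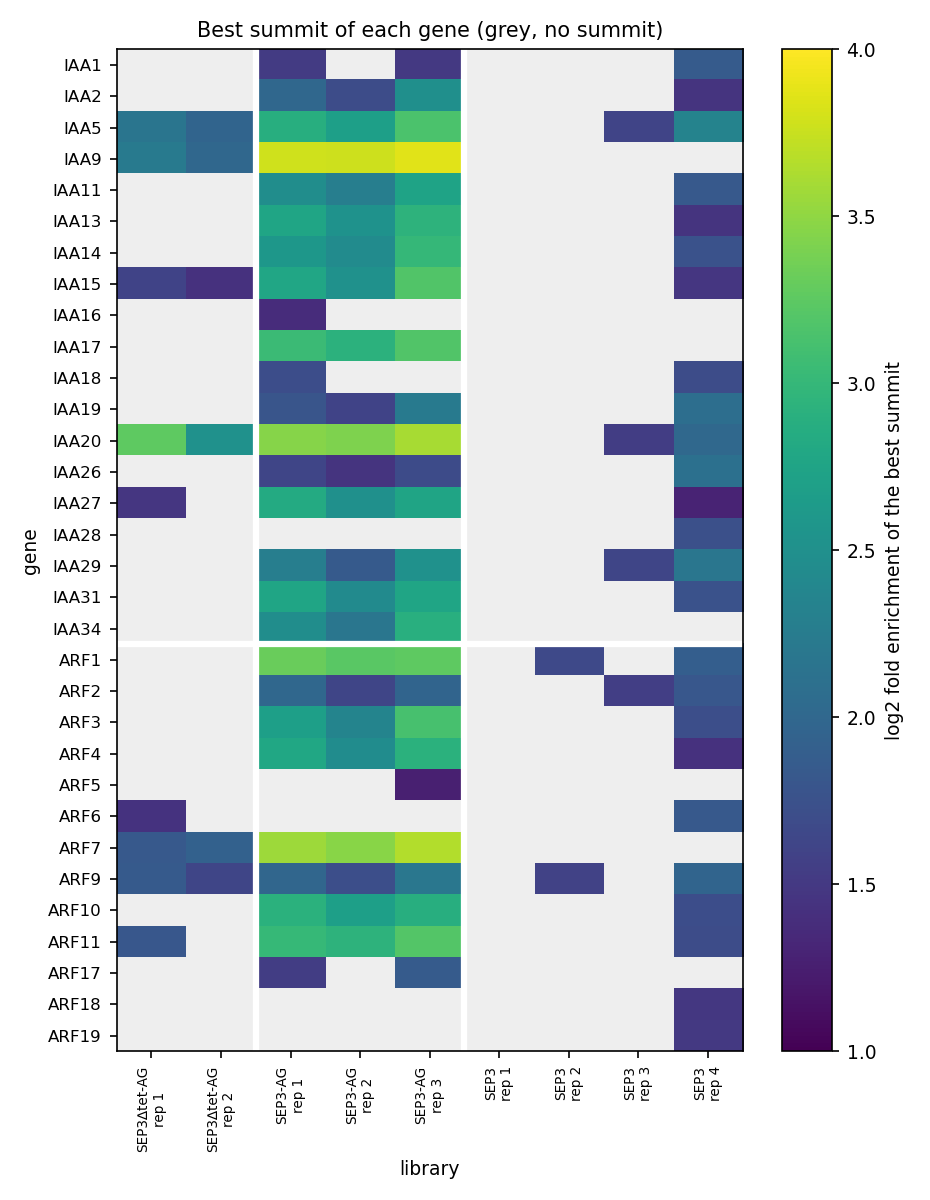
Log2 fold enrichment over input of the best summit of each gene (rows, the 32 genes with a summit in any library) in each of the 9 libraries (columns), grey where the library had no summit in the window. IAA9, IAA20 and ARF7 were the brightest rows in the SEP3-AG libraries, and SEP3 replicates 1 to 3 were nearly empty.

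The windows of the 44 genes held 62 sites, none of which was counted for more than 1 of these genes. SEP3∆tet-AG had 7 consensus sites there, SEP3-AG 37 and SEP3 6. Of the SEP3-AG sites, 30 of 37 had a summit in all 3 libraries, against 6336 of 8201 of all SEP3-AG sites. Of the SEP3 sites, 0 of 6 had a summit in all 4, against 369 of 2221 of all SEP3 sites. With SEP3-AG, 17 genes had 1 site and 8 genes had several, with 4 at ARF4 as the most. These counts have no value over all genes beside them. Of the 7 SEP3∆tet-AG sites, 6 were also SEP3-AG sites (85.7%, against 89.8% of all SEP3∆tet-AG sites), and these made up 16.2% of the 37 SEP3-AG sites (23.8% of all SEP3-AG sites). All 6 SEP3 sites were SEP3-AG sites (78% of all SEP3 sites), which is 16.2% of the SEP3-AG sites (21.1% of all). With summits within 100 bp taken as 1 site, SEP3 had 5 consensus sites at these genes. Of the 37 SEP3-AG sites, 28 (75.7%) belonged to no other complex, against 69.1% of all SEP3-AG sites. SEP3 replicate 4 had 38 sites at these genes, of which 13 (34.2%, against 37.4% of all its sites) were seen in no other library.

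The SEP3-AG sites lay on all sides of the genes. Of 37, 19 were upstream (51.4%, against 58.6% of the gene and site pairs of all genes), 12 in the gene body (32.4%, against 23.7%) and 6 downstream (16.2%, against 17.7%). Within the 1000 bp upstream of the gene start there were 7 sites (18.9%, against 26.5%), all at Aux/IAA genes (IAA13, IAA19, IAA20, IAA26, IAA27, IAA29 and IAA31). No ARF site lay there. The body sites comprised 8 in introns (IAA5, IAA9, 2 at IAA14, IAA17, IAA34, ARF1 and ARF4), 3 in UTR exons (2 at ARF4 and 1 at ARF7) and 1 in a coding exon (ARF9). The counts in introns and exons were not set beside all genes. For 30 of 37 sites the Aux/IAA or ARF gene was the nearest protein-coding gene, a count that has no value over all genes beside it. With each summit counted for its nearest gene only, SEP3-AG bound 21 of 44 genes (47.7%, against 22.1% of all genes). The sites farthest upstream, at IAA13 (2993 bp), ARF11 (2908 bp) and ARF1 (2865 bp), lay close to the edge of the window.

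**Figure D3:**
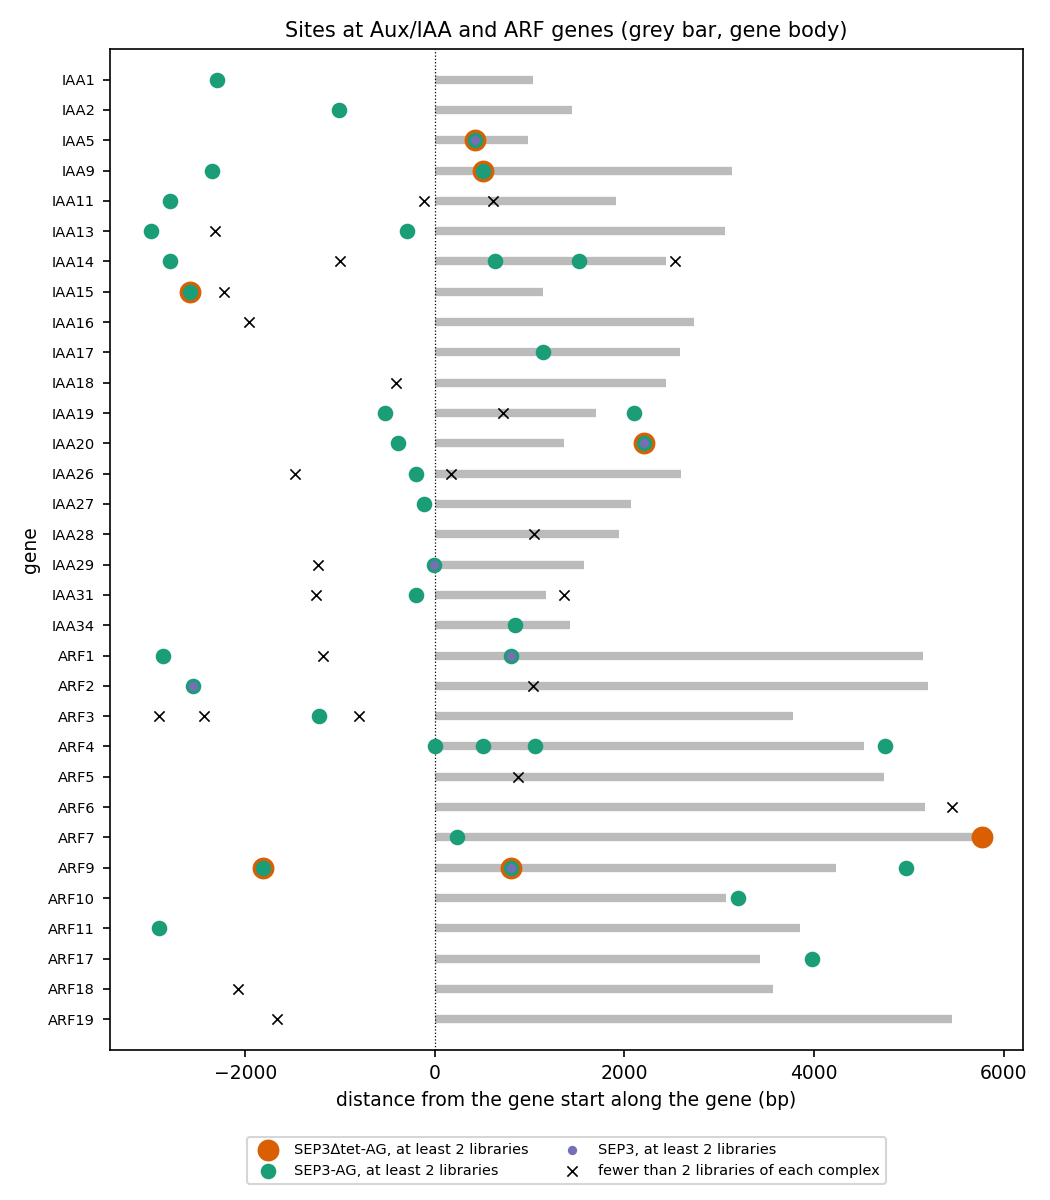
Position of each site relative to the start of its gene, in bp along the direction of transcription, for the 32 genes with a site (grey bars, gene bodies). Large, middle and small dots mark consensus sites of SEP3∆tet-AG, SEP3-AG and SEP3, and crosses mark sites seen in fewer than 2 libraries of each complex. Every SEP3∆tet-AG or SEP3 dot shares its place with a SEP3-AG dot, except the SEP3∆tet-AG dot downstream of ARF7.

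CArG boxes were not more frequent at these SEP3-AG sites than at all SEP3-AG sites, beyond counting error. With up to 1 mismatch, a box lay within 50 bp of the summit at 5 of 7 SEP3∆tet-AG sites (71.4%, against 64.4% of all SEP3∆tet-AG sites), at 19 of 37 SEP3-AG sites (51.4%, Wilson interval 35.9% to 66.6%, against 53.4%) and at 2 of 6 SEP3 sites (33.3%, against 61.1%). In flanking windows of the same length, 10.8% of the 37 SEP3-AG sites had such a box, against 11% of all. Boxes without mismatch were found at 0 of 7 SEP3∆tet-AG sites (13.9% of all), at 5 of 37 SEP3-AG sites (13.5%, against 9.23% of all) and at 0 of 6 SEP3 sites (13.1% of all). The auxin response element TGTCTC, sought on both strands within 100 bp, was present at 3 of 37 SEP3-AG sites (8.11%, against 7.61% of all).

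The 5 sites with a full box ranked between 18.9 and 98.4 in the SEP3-AG lists. The site 1016 bp upstream of IAA2, an early auxin-induced gene, had fold enrichments of 4.01, 3.25 and 5.64 in the SEP3-AG libraries and 2.73 in SEP3 replicate 4. IAA1 and IAA14 (SOLITARY-ROOT, known from lateral root formation) are neighbours on chromosome 4 that are transcribed away from each other, 10732 bp apart with 0 protein-coding genes between them. The box CCAAAAAAGG was the best match at a site of each. The IAA14 site lay 2793 bp upstream, with fold enrichments of 3.03, 2.37 and 3.59 with SEP3-AG and 3.39 in SEP3 replicate 4. The IAA1 site lay 2298 bp upstream, with 2.87 and 2.82 in SEP3-AG replicates 1 and 3 and 3.64 in SEP3 replicate 4. Its best-ranked summit was that of SEP3 replicate 4, 26.5 bp from the centre of the box, while the summits of SEP3-AG replicates 1 and 3 lay 107.5 and 36.5 bp from it. Both ranked among the weaker SEP3-AG summits, between 84.5 and 98.4. The intron site of IAA14 with the box CCTTTTAAGG had 3.80, 3.45 and 4.37 with SEP3-AG and no summit in the other complexes, whereas the strongest IAA14 site, in another intron, had 6.01, 5.44 and 8.01 and no box with up to 1 mismatch.

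IAA9 (AT5G65670) had the highest enrichment of all 44 genes. Its summit in an intron, 508 bp from the gene start (chromosome 5, 26253916), had fold enrichments of 4.66 and 4.01 in the SEP3∆tet-AG libraries and of 13.7, 13.7 and 14.6 in the SEP3-AG libraries, and no SEP3 library had a summit there. The SEP3-AG values ranked between 1.23 and 2.09 in their lists and did not overlap with those of SEP3∆tet-AG, which ranked between 30.1 and 36.8. On the log2 scale the difference was -1.70 (exact permutation test, p = 0.1, the smallest possible). No box with up to 1 mismatch lay within 50 bp, and the best match was the sequence printed above. A second site 2351 bp upstream was seen with SEP3-AG alone, at 4.25, 3.47 and 4.71. IAA9 encodes a canonical Aux/IAA repressor, and in tomato loss of IAA9 leads to fruit set without pollination.

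IAA20 (AT2G46990), which encodes an Aux/IAA protein without the canonical degron, had its strongest site 844 bp after the gene end, inside the neighbouring transporter gene ABCB4. There the fold enrichment was 9.58 and 5.73 with SEP3∆tet-AG, 11.0, 10.7 and 12.2 with SEP3-AG, and 2.91 and 4.04 in SEP3 replicates 3 and 4. These were the highest SEP3∆tet-AG values of the 44 genes, and they lay below all SEP3-AG values (log2 difference -0.60, exact permutation test, p = 0.1, the smallest possible). By rank within their lists the complexes overlapped there, at 2.60 and 7.75 for SEP3∆tet-AG and 7.22, 7.62 and 4.58 for SEP3-AG. Without SEP3∆tet-AG replicate 1 the log2 difference was -0.975, and without replicate 2 it was -0.233. The site nearest to the IAA20 start, 389 bp upstream, was seen with SEP3-AG alone, at 6.31, 5.50 and 7.76.

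IAA5 (AT1G15580), an early auxin-induced gene, was bound in its intron, 418 bp from the start. Fold enrichment was 4.50 and 3.90 with SEP3∆tet-AG, 7.39, 6.48 and 8.86 with SEP3-AG and 3.07 and 5.08 in SEP3 replicates 3 and 4. The SEP3∆tet-AG and SEP3-AG values did not overlap (log2 difference -0.84, exact permutation test, p = 0.1, the smallest possible). The printed box lay 39.5 bp from the summit. IAA15 showed the same order at a site 2588 bp upstream, inside the gene AT1G80400, with 3.03 and 2.69 for SEP3∆tet-AG and 6.85, 5.74 and 9.13 for SEP3-AG (log2 difference -1.32, exact permutation test, p = 0.1, the smallest possible), and 2.77 in SEP3 replicate 4.

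ARF9 (AT4G23980), a class B ARF, was the third gene bound by all 3 complexes, and its SEP3-AG summits were weak. The site in a coding exon, 806 bp from the start, had fold enrichments of 3.61 and 2.53 with SEP3∆tet-AG, 3.99, 3.29 and 4.57 with SEP3-AG, and 3.02 and 3.92 in SEP3 replicates 2 and 4. In the same order, the ranks were 51.0 and 93.7, then 58.0, 76.1 and 58.6, then 83.0 and 25.0. SEP3∆tet-AG and SEP3-AG overlapped there (log2 difference -0.37, exact permutation test, p = 0.3). This value was -0.633 without SEP3∆tet-AG replicate 1 and -0.117 without replicate 2. A site 1818 bp upstream had 2.84 and 3.09 with SEP3∆tet-AG, 3.11 and 2.87 in SEP3-AG replicates 1 and 2, and 3.39 in SEP3 replicate 4.

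**Figure D4:**
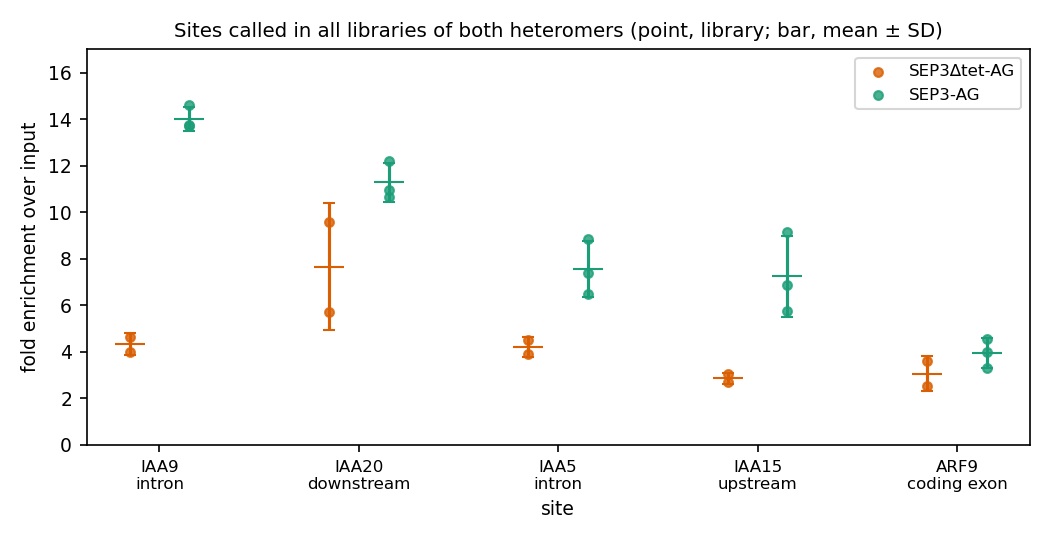
Fold enrichment over input at the 5 sites of Aux/IAA and ARF genes that were called in all 5 libraries of SEP3∆tet-AG (left of each pair) and SEP3-AG (right). Points are libraries and bars are the mean ± SD. At IAA9, IAA20, IAA5 and IAA15 every SEP3∆tet-AG library lay below every SEP3-AG library, and at ARF9 they overlapped.

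The lower fold enrichment with SEP3∆tet-AG was not particular to these genes. At the 5 sites called in all 5 libraries the median log2 difference was -0.84, and over the 1814 sites of the genome called in all 5 it was -0.80. Every SEP3∆tet-AG library lay below every SEP3-AG library at 4 of the 5 sites, against 77.1% of the 1814 sites. Fold enrichment is a ratio over a local background, called against the same input DNA for every library. Peak strength still has no common scale across libraries. A shift that all sites share thus cannot be told apart from a property of the libraries.

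ARF7 (NPH4, AT5G20730), a class A activator that acts in tropisms and lateral roots, had the second highest mean fold enrichment with SEP3-AG, 11.8 ± 0.739 (SD, n = 3), which overlapped with that of the IAA20 site, 11.3 ± 0.820 (SD, n = 3). In a UTR exon, 238 bp from the gene start, the SEP3-AG libraries gave 11.8, 11.1 and 12.6, and SEP3∆tet-AG and SEP3 had no summit. SEP3∆tet-AG was instead called 38 bp after the gene end, where the gene CPN20 is nearest, with 3.59 and 3.82. SEP3-AG had a summit there in replicate 3 alone (3.52). It was the only one of the 7 SEP3∆tet-AG consensus sites at these genes that was not a SEP3-AG consensus site.

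ARF1 (AT1G59750) and ARF11 (AT2G46530), class B repressors, were the next ARFs by rank in the SEP3-AG lists. ARF1 had fold enrichments of 9.95, 9.39 and 9.75 with SEP3-AG at a site 2865 bp upstream and of 9.31, 7.79 and 9.53 in an intron, 805 bp from the start. The intron site was also called in SEP3 replicates 2 and 4, at 3.15 and 3.73. ARF11 had 8.05, 7.68 and 9.19 with SEP3-AG at a site 2908 bp upstream, nearest to AT2G46520, beside 3.51 in SEP3∆tet-AG replicate 1 and 3.25 in SEP3 replicate 4. None of these sites had a box with up to 1 mismatch within 50 bp.

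IAA17 (AXR3, AT1G04250) and IAA27 (AT4G29080) were the next Aux/IAA genes by rank in the SEP3-AG lists. IAA17 had a single site, in an intron 1139 bp from the start, with 8.24, 7.62 and 9.13 in the SEP3-AG libraries and no summit elsewhere. Its best match to a box had 3 mismatches within 50 bp of the summit and 2 mismatches within 100 bp. IAA27 was bound 110 bp upstream of its start, with 2.78 in SEP3∆tet-AG replicate 1, 7.12, 5.68 and 6.71 with SEP3-AG and 2.46 in SEP3 replicate 4. It was 1 of 3 SEP3-AG sites at these genes with a pair of boxes within 50 bp (8.11%, against 11.2% of all SEP3-AG sites).

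ARF3 (AT2G33860), the gynoecium regulator ETT, was bound by SEP3-AG alone. The site 1227 bp upstream (chromosome 2, 14330205) had fold enrichments of 6.45, 5.13 and 8.71 in the 3 libraries, with ranks between 18.9 and 41.3. Its full box CCATTAATGG lay 41.5 bp from the summit. A further site 2437 bp upstream was seen in SEP3-AG replicate 2 alone (3.09), and sites 800 and 2916 bp upstream in SEP3 replicate 4 alone (3.29 and 2.52). No SEP3∆tet-AG library had a summit in the window of ARF3.

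The other ARFs named for their part in the flower had little or no signal with SEP3-AG. ARF5 (AT1G19850) had 1 summit, in an intron 881 bp from the start, in SEP3-AG replicate 3 alone, with a fold enrichment of 2.40 and a rank of 98.3. ARF6 (AT1G30330) had 1 site, 289 bp after the gene end, and no summit with SEP3-AG. The site had 2.70 in SEP3∆tet-AG replicate 1 (rank 87.3) and 3.56 in SEP3 replicate 4 (rank 35.5). ARF8 (AT5G37020) had no summit in any of the 9 libraries. A gene absent from a list can still be bound below the threshold of that library, and the weakest summit of any list had a −log10 q of 4.01.

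The remaining bound ARFs were ARF2, ARF4, ARF10 and ARF17. ARF4, which acts with ARF3 in leaf polarity, had 4 SEP3-AG sites, with mean fold enrichments of 6.67 ± 1.06 at the gene start, 5.29 ± 1.10 in a UTR exon and 4.98 ± 0.652 in an intron (SD, n = 3 each), and 4.94 ± 0.625 after the gene end (SD, n = 2). ARF10 had 7.11 ± 0.560 (SD, n = 3) at a site 126 bp after its end. ARF2, known from leaf senescence and floral organ shedding, had 3.67 ± 0.511 (SD, n = 3) 2548 bp upstream, and this site was also called in SEP3 replicates 3 and 4 (2.95 and 3.51). There the summit of SEP3 replicate 3 lay at 24907776, and those of SEP3-AG lay between 24907552 and 24907610. ARF17 had 3.27 ± 0.503 (SD, n = 2) after its end. Of the remaining Aux/IAA sites within 1000 bp upstream, that of IAA31 had 6.33 ± 0.809, that of IAA29 4.73 ± 1.07, that of IAA13 3.58 ± 0.881 and that of IAA26 3.00 ± 0.24 with SEP3-AG (SD, n = 3 each), and that of IAA19 3.77 ± 1.26 (SD, n = 2). IAA29 was also called in SEP3 replicates 3 and 4 (3.08 and 4.51).

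Other genes of the auxin pathway were counted the same way. Of 51 genes in 7 lists, SEP3∆tet-AG bound 6 (11.8%, against 11.3% of all genes), SEP3-AG 28 (54.9%, against 36%) and SEP3 4 (7.84%, against 11.3%). Among the TIR1/AFB receptors SEP3-AG bound 2 of 6 genes, among the TOPLESS co-repressors 3 of 5 and among the AUX1/LAX influx carriers 2 of 4. It bound 8 of 14 genes for auxin synthesis (TAA/TAR and YUCCA), 3 of 7 GH3 genes for auxin conjugation and 4 of 7 genes of the ARF12-like cluster, whose near-identical copies can lose uniquely placed reads. Among the synthesis genes, YUC2 and YUC7 were bound by all 3 complexes. Without SEP3 replicate 4, SEP3 bound 1 of the 51 genes (1.96%, against 4.71% of all genes), which was YUC2.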

How the data were processed

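Binding was measured by DAP-seq (SEP3) and seq-DAP-seq (SEP3∆tet-AG and SEP3-AG) in 9 libraries, each with a deposited peak list. The authors aligned reads to TAIR10 with Bowtie2, kept uniquely placed reads, removed duplicates and called peaks with MACS2 per library against a single input DNA library. Replicates were not pooled. The submitters' processing notes also name SAMtools and bcl2fastq 2.17. The deposited fold enrichment is a ratio over the local background, and each deposited list also gives −log10 p and −log10 q (p-value and q-value) per summit. The deposited score column was not used.

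From these values, summit positions (1-based) were set against TAIR10.1 genes and sequence in Python 3.11.15 with NumPy 2.4.6, pandas 2.3.3 and SciPy 1.17.1. Summits were ranked by −log10 p within a list. Counts of genes were set beside all protein-coding genes, and libraries were compared by two-sided exact permutation tests. The study describes replicate protein reactions for SEP3∆tet-AG and SEP3-AG, but the labels do not tie libraries to them, so these p-values measure the spread between libraries, which may be technical. Depth relative to input was recovered from pileups, whole for 100% of the 300 weakest summits of each library. Scripts were tested on simulated data. Genes given with values in every library were ARF3, ARF5, ARF6, ARF8, genes bound by all 3 complexes and the 6 further genes with the best mean rank in SEP3-AG. Values of other genes, which describe boxes, places and shared sites, were chosen after they were seen. The genes, lists and tests were chosen with earlier results of these data known. Values of 1 further auxin pathway list are not reported here.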

Additional observations from a re-analysis of the deposited data

Results flagged for a closer look

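The number of Aux/IAA and ARF genes with a summit was far from the other values in 1 of the 4 SEP3 libraries. Replicate 4 had 25 genes and replicates 1 to 3 had 0, 2 and 4, a gap that passed Dixon's 95% limit for 4 values. Chance alone would mark about 1 group in 20. The number of all summits differed in the same way (8916 in replicate 4, against 473, 1225 and 1915), and the peak names of replicate 4 carry another prefix. The part of list length or batch in this difference was not tested. As a share of its list, replicate 4 had 0.437% of summits at these genes, and this was not far enough from the other SEP3 libraries to pass the same limit.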

How the results depend on the processing

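The differences per library between SEP3∆tet-AG and SEP3-AG and between SEP3-AG and SEP3, in genes and in share of summits, kept their direction in every alternative run. No test passed 0.05 in any alternative, and most could not have passed it. The difference in genes between SEP3∆tet-AG and SEP3 (-0.25) had no stable direction: it was 2.75 at −log10 q of at least 10, 0.75 with the 473 top summits of every list, 0.5 with peak regions in place of summits and -2.83 to 5.5 with 1 library left out. The difference in median rank between SEP3∆tet-AG and SEP3-AG ran from -6.12 to 16 with 1 library left out. The causes were not tested.

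Replicate numbers are shared between complexes, and the labels do not say whether they mark a shared preparation. Deviations of same-numbered libraries correlated at 0.101, -0.0149 and -0.174 for SEP3-AG with SEP3, at 0.0185 for SEP3∆tet-AG with SEP3-AG and at -0.193 for SEP3∆tet-AG with SEP3. Comparisons with SEP3∆tet-AG give the same value for both of its replicates, so the correlations cannot decide whether same-numbered libraries were prepared together. With the replicate number as a block, the differences in genes were -17.5 (SEP3∆tet-AG minus SEP3-AG), 23.3 (SEP3-AG minus SEP3) and 6.5 (SEP3∆tet-AG minus SEP3). The block leaves out unmatched libraries, SEP3 replicate 4 among them.

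With windows from 1000 bp upstream to the gene end, SEP3∆tet-AG bound 3 genes (6.82%, against 5.98% of all genes), SEP3-AG 16 (36.4%, against 20.5%) and SEP3 4 (9.09%, against 5.78%). With the 473 top summits of each list, these were 1, 2 and 0 genes (2.27%, 4.55% and 0.0%, against 2.05%, 2.61% and 2.68% of all genes). Assigning each summit to its nearest protein-coding gene left 3 genes for SEP3∆tet-AG (6.82%, against 6.65% of all genes). For SEP3 the number was 25 with any library (56.8%, against 36.3%), 0 with every library (0.0%, against 1.98%), 2 at −log10 q of at least 10 (4.55%, against 7.48%) and 0 to 6 with 1 library left out. Genes bound by all 3 complexes numbered 0 without SEP3 replicate 4. The values without that library for genes bound by all 3 complexes, for genes bound by SEP3-AG alone and for other auxin genes were added after seeing the data. For SEP3-AG the number was 23 to 25 with 1 library left out.

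CArG boxes without mismatch were found at 0% of SEP3∆tet-AG sites, 13.5% of SEP3-AG sites and 0% of SEP3 sites of these genes. Within 100 bp, boxes with up to 1 mismatch were found at 67.6% of SEP3-AG sites (63.3% of all SEP3-AG sites) and 83.3% of SEP3 sites (73.3% of all SEP3 sites). With 1 library left out, the share ran from 0% to 50% for SEP3, and without SEP3 replicate 4 no consensus site was left. Leaving out a SEP3∆tet-AG library was not possible for counts over at least 2 libraries.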
